A study of Mus musculus with 6 samples.

Results

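The genes described here carry peptides into the endoplasmic reticulum and load them onto MHC class I molecules. They are 9 genes chosen by name and found by Entrez gene ID among the 36528 gene IDs of the tables: Tap1, Tap2, Tapbp, Tapbpl, Erap1, Calr, Canx, Pdia3 and Nlrc5. RNA sequencing was done on 6 libraries of mouse HOXB-8 cells, bone marrow progenitors kept dividing by a homeobox factor, which the extraction notes also call iMACs. In 3 libraries, labelled IRF2_KO, the cells had received gRNA2 against the gene of IRF2, an interferon regulatory factor that binds DNA at many interferon-responsive genes. The 3 others, labelled Parental, were Irf2 wild type and had the control guide Luc. No further treatment, time or age is given for either group, nor whether a line is 1 clone. The comparison asks which transcripts depend on IRF2.

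In nucleated cells, proteasomes cut proteins into peptides, and the transporter made of TAP1 and TAP2 pumps these into the endoplasmic reticulum. There tapasin (Tapbp) holds an empty class I molecule beside the transporter together with the chaperones calreticulin (Calr), calnexin (Canx) and ERp57 (Pdia3), while ERAP1 trims peptides and TAPBPR (Tapbpl) exchanges weakly bound ones. NLRC5 is a transactivator of class I genes, and many genes of the route are known to be induced by interferon.

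In IRF2_KO cells both transporter subunits, the peptide editor TAPBPR and the trimming enzyme were lower. Tapasin, which also edits peptides, was higher, and the general chaperones differed little or not beyond the test. Tap2 fell 18.0-fold, Tapbpl 15.9-fold, Tap1 3.71-fold and Erap1 2.81-fold, and Tapbp rose 1.59-fold. All 9 genes passed the filter on low counts. Of them 5 were called lower and 1 higher (quasi-likelihood test of edgeR, Benjamini-Hochberg adjusted p under 0.05 over 13353 genes). Among all genes tested, 23.6% were called lower, 23.6% higher and 47.2% either way, so that a call alone sets no gene apart here. A called fall of at least 2-fold, which 2.26% of tested genes had, was seen in 4 of the 9. A called rise of at least 2-fold, which 4.79% had, was seen in 0 of the 9. The median log2 fold change of the 9 was -0.48, against -0.01 over all genes tested. That median is the value of Nlrc5, which did not pass and varied from -0.66 to -0.28 over the alternatives. Whether the libraries of a group stand for separate cultures is not stated, and p-values here reflect only how far these libraries differ, a spread that may be technical.

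**Figure D1:**
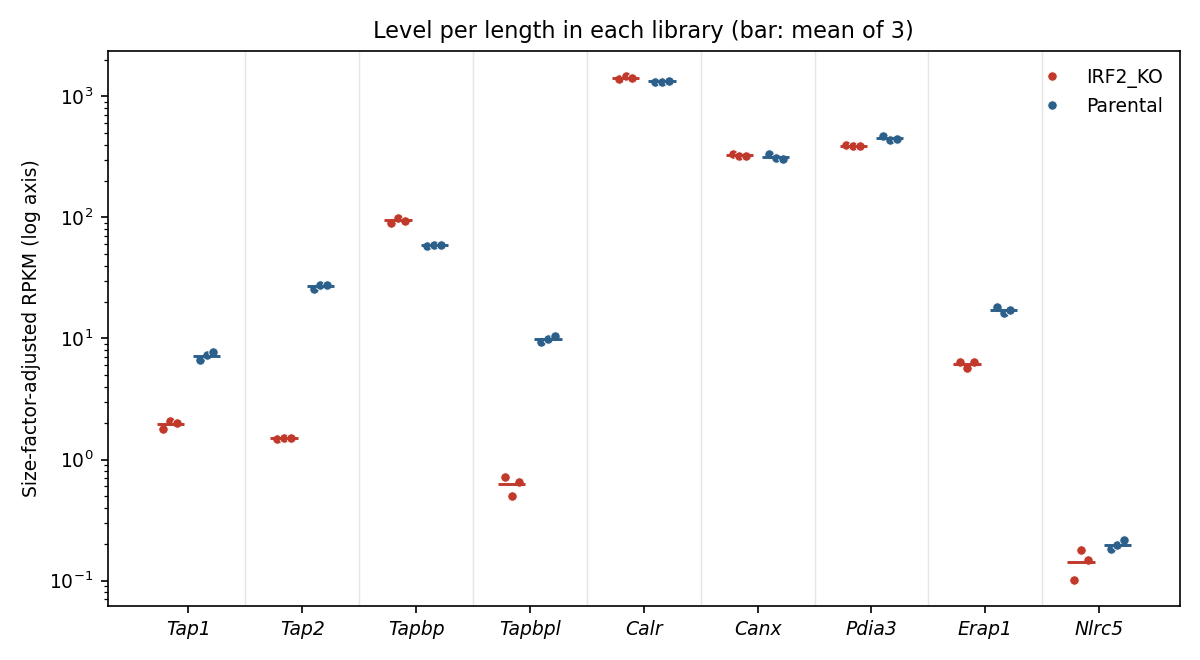
Each point is 1 library's size-factor-adjusted RPKM (reads per kilobase of gene model, scaled for depth, log axis), with IRF2_KO left of Parental and a bar at the mean of 3. Tap1, Tap2, Tapbpl and Erap1 are lower in all 3 IRF2_KO libraries than in any Parental library, and Tapbp is higher.

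Total counts lay between 29070160 and 34051219 in IRF2_KO and between 33422590 and 39925038 in Parental. Irf2 itself stood at 40.3, 37.0 and 40.1 CPM (counts scaled to the TMM-adjusted library size) in IRF2_KO and at 41.1, 42.4 and 41.1 CPM in Parental (log2 fold change -0.08, edgeR adjusted p = 0.209). Since an edited gene may still be transcribed, this level is no check of the labels. As to cell identity, 13 macrophage markers summed to between 1671 and 1675 CPM in IRF2_KO and between 566 and 577 CPM in Parental. Gpnmb, Lyz2 and Lpl made up most of that sum, at 535, 480 and 472 CPM in IRF2_KO and 185, 193 and 71.8 CPM in Parental. Of the 9 tested, 8 were called higher, but C1qb had no read in any library, and C1qa and C1qc were near 0. Cd163, too low to test, went the other way, with 0 reads in each IRF2_KO library and 11, 2 and 10 reads in Parental. Progenitor markers summed to between 471 and 489.6 CPM in IRF2_KO and between 734 and 737 CPM in Parental, with Cd34 and Meis1 at or near 0. Myb made up most of that sum and fell by 0.44 on the log2 scale, while Kit and Mycn fell by 3.26 and 4.23, so that all 3 tested progenitor markers were called lower (median -3.26). The sum of 11 neutrophil and granule markers lay between 9536.5 and 11012 CPM in IRF2_KO and between 11447 and 12441.5 CPM in Parental. They did not move together: 4 were called higher, 3 lower and 4 did not pass (median 0.08). Elane stood at 924 ± 72.2 CPM in IRF2_KO and 2989 ± 98.9 CPM in Parental, while Ltf rose by 1.38 on the log2 scale. For 9 dendritic cell markers the sums were 52.8 to 59.4 CPM in IRF2_KO and 34.4 to 36.6 CPM in Parental. Of these, 4 were too low to test, 4 were called higher and 1, Flt3, was called lower (9.83 ± 1.18 CPM in IRF2_KO, 17.7 ± 0.699 CPM in Parental). Lymphocyte markers summed to at most 0.119 CPM in IRF2_KO and 0.126 CPM in Parental, and erythroid and megakaryocyte markers to at most 1.34 CPM in IRF2_KO and 0.870 CPM in Parental. The part of these shifts in the results below was not tested, and in bulk RNA fewer cells of a type and less RNA per cell cannot be told apart.

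The transporter is a pair of half-transporters of the ABCB family that works only as a heterodimer. Tap2 (Entrez gene 21355, chromosome 17, 34204479 to 34216321, GRCm38) stood at 4.03, 4.08 and 4.07 CPM in the IRF2_KO libraries and at 69.5, 75.2 and 75.1 CPM in the Parental libraries. The 3 IRF2_KO libraries were nearly equal (SD 0.0259 CPM) and lay far below all 3 Parental libraries, and the log2 fold change was -4.17 (SE 0.07, edgeR adjusted p = 3.82e-18). By the size of its fall Tap2 ranked 27 among the 13353 genes tested. Tap1 (21354, chromosome 17, 34187556 to 34197225) had 5.38, 6.24 and 6.09 CPM in IRF2_KO and 20.1, 22.3 and 23.4 CPM in Parental. Its groups did not overlap either, and its log2 fold change was -1.89 (SE 0.09, edgeR adjusted p = 6.09e-12).

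Per length, the order of the subunits turned over. Tap2 averaged 1.51 ± 0.0168 RPKM in IRF2_KO and 27.0 ± 1.14 RPKM in Parental, and Tap1 averaged 1.96 ± 0.162 RPKM in IRF2_KO and 7.22 ± 0.540 RPKM in Parental (SD, n = 3 each). The ratio of Tap2 to Tap1 within a library was 0.839, 0.731 and 0.748 in IRF2_KO and 3.88, 3.78 and 3.59 in Parental. Every IRF2_KO library thus had more Tap1 than Tap2 transcript per length and every Parental library more Tap2 than Tap1. On the log2 scale the ratio differed by -2.28 between groups (exact permutation test, two-sided, p = 0.1, the smallest that 3 libraries against 3 allow). The other ABCB transporters did not share this size of fall. Beside this and the later lists, 23.6% of all genes tested were called lower and 23.6% higher. Of the 8 tested ABCB transporters outside Tap1 and Tap2, 2 fell, 1 rose and 5 did not pass, with a median log2 fold change of 0.01. Those that fell were Abcb10 and Abcb6, mitochondrial transporters, by 0.33 and 0.29 on the log2 scale. Abcb4, a phospholipid exporter of liver, rose to 4.22 ± 0.411 CPM in IRF2_KO, against 0.654 ± 0.118 CPM in Parental. Abcb9, a lysosomal peptide transporter and the closest relative of the TAP subunits, was near silent and did not pass (log2 fold change 0.32, edgeR adjusted p = 0.462).

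**Figure D2:**
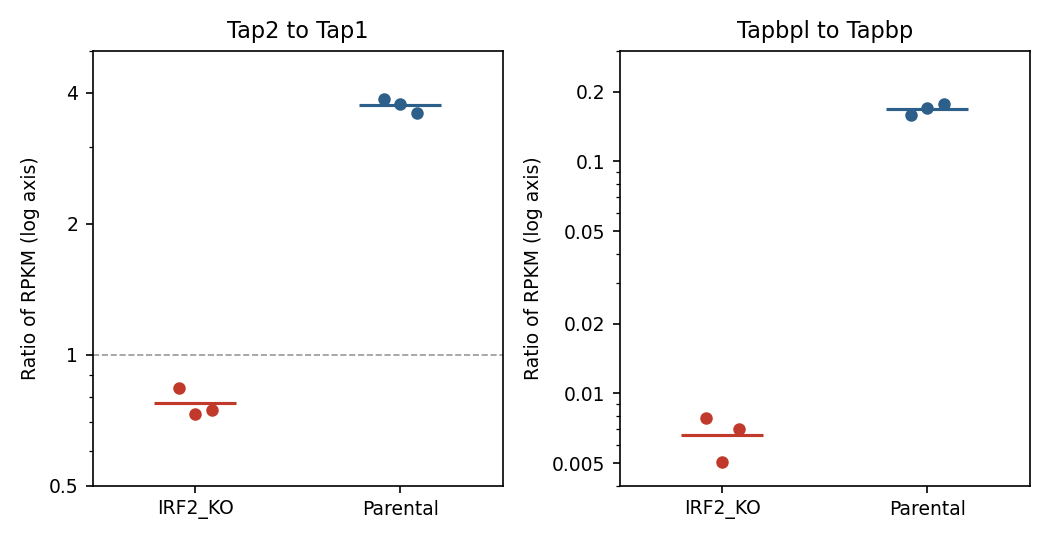
Ratio of RPKM within each library (log axes) for Tap2 to Tap1, with a dashed line where both are equal, and for Tapbpl to Tapbp, IRF2_KO left of Parental, with a bar at the mean of 3. The Tap2 to Tap1 ratio is below 1 in the 3 IRF2_KO libraries and above 3.5 in the 3 Parental libraries.

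Tapasin and its relative TAPBPR both edit the peptides that class I molecules hold, tapasin inside the loading complex and TAPBPR outside it, and their transcripts moved in opposite directions. Tapbpl (213233, chromosome 6, 125223927 to 125231860) had 55, 37 and 57 reads in the IRF2_KO libraries and 951, 872 and 1096 reads in the Parental libraries, which is 1.85, 1.29 and 1.69 CPM against 24.0, 25.9 and 27.3 CPM. Its log2 fold change was -3.99 (SE 0.11, edgeR adjusted p = 4.44e-15), rank 33 from the lowest. Tapbp (21356, chromosome 17, 33919478 to 33929290) had 257, 279 and 264 CPM in IRF2_KO and 165, 167 and 169 CPM in Parental. All 3 IRF2_KO libraries lay above all 3 Parental libraries, and the log2 fold change was 0.67 (SE 0.04, edgeR adjusted p = 5.87e-10). That call was lost when a change of more than 1.5-fold was asked for (glmTreat adjusted p = 0.0919). The ratio of Tapbpl to Tapbp per length was 0.00786, 0.00505 and 0.00702 in IRF2_KO and 0.158, 0.169 and 0.176 in Parental, a log2 difference of -4.68 (exact permutation test, two-sided, p = 0.1, again the smallest possible). Adjusted over the 2 ratios tested, both p-values were still 0.1.

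Gene models overlap at several of these loci, and whether strand was used in counting is not given in the sources used here. Tapbp overlaps the lncRNA gene Gm19412, which stood at 37.5 ± 1.13 CPM in IRF2_KO and 23.9 ± 1.28 CPM in Parental (log2 fold change 0.65). Reads of the pair cannot be told apart within the overlap, which is 1207 bases in GENCODE M21. Tapbp itself stood at 266 ± 11.4 CPM in IRF2_KO and 167 ± 1.74 CPM in Parental, and the share of its reads from the overlap was not tested. Tapbpl overlaps E130112N10Rik, with 1.97 ± 0.517 CPM in IRF2_KO and 0.783 ± 0.160 CPM in Parental. In GENCODE M21 it also overlaps Vamp1 on the opposite strand, over 7928 bases, nearly the whole Tapbpl model. The log2 fold change of Vamp1, -0.02, did not pass (edgeR adjusted p = 0.903). The share of Tapbpl reads from these overlaps was not tested. The end of Erap1 overlaps Cast, which encodes calpastatin and rose by 0.50 on the log2 scale. In GENCODE M21 a transcript of Psmb9 runs 212 bases into Tap1 on the opposite strand, Gm20496 and Gm15821 overlap Tap2, and Zbtb22 overlaps Tapbp on its own strand (log2 fold change 0.00).

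The chaperones of the loading complex serve the folding of most glycoproteins of the endoplasmic reticulum and were by far the most abundant of the 9 genes. Calr (12317, chromosome 8, 84842088 to 84846931), a soluble lectin chaperone, had 2771, 2915 and 2829 CPM in IRF2_KO and 2642, 2649.6 and 2678 CPM in Parental. These groups did not overlap, as was so for 8 of the 9 genes and for 54.0% of all genes tested, but the difference of 0.10 on the log2 scale (SE 0.04) missed the threshold (edgeR adjusted p = 0.0538). The difference was called with DESeq2 (adjusted p = 0.0267), and without IRF2_KO 1 (0.12, edgeR adjusted p = 0.0113). Canx (12330, chromosome 11, 50293957 to 50325673), its membrane-bound counterpart, had 1485, 1405 and 1419 CPM in IRF2_KO and 1466, 1372 and 1351 CPM in Parental. It was the 1 gene whose groups overlapped, and its difference was 0.04 on the log2 scale (SE 0.04, edgeR adjusted p = 0.472). Pdia3 (14827, chromosome 2, 121413902 to 121438687), a disulphide isomerase that is bound to tapasin in the complex, had 1071, 1038 and 1051 CPM in IRF2_KO and 1276, 1185 and 1211 CPM in Parental. It fell by 0.22 on the log2 scale (SE 0.04, edgeR adjusted p = 0.000279), which is 1.16-fold.

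Genes that share the work of these chaperones moved little and in both directions. In the calnexin cycle, where glucose and mannose are trimmed from glycoproteins, 3 of 9 tested genes rose, 1 fell and 5 did not pass, with a median log2 fold change of 0.06. Edem1, which hands misfolded glycoproteins to degradation, rose to 459 ± 14.7 CPM in IRF2_KO, against 327 ± 10.2 CPM in Parental. Mogs, the glucosidase that starts the trimming, fell to 283 ± 17.2 CPM in IRF2_KO, against 357 ± 17.6 CPM in Parental. The other rises were small, 0.13 for Man1b1, a mannosidase, and 0.11 for Prkcsh, a subunit of glucosidase II. Both calls were lost without Parental 1, Parental 2, IRF2_KO 2 or IRF2_KO 3, and that of Prkcsh also without Parental 3, with values of 0.11 to 0.13 for Man1b1 and 0.08 to 0.13 for Prkcsh. Of 13 other chaperones and disulphide isomerases, 5 rose and 5 fell (median -0.01). The oxidases that recharge the isomerases were apart: Ero1a rose by 0.61 on the log2 scale (SE 0.05) and Ero1b fell by 1.90 (SE 0.12), to 2.16 ± 0.156 CPM in IRF2_KO against 8.03 ± 0.578 CPM in Parental. The co-chaperones Dnajb11 and Dnajc3 fell by 0.33 and 0.25.

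Erap1 (80898, chromosome 13, 74639573 to 74693205), the aminopeptidase that cuts peptides to the length class I molecules accept, had 28.2, 25.1 and 27.9 CPM in IRF2_KO and 81.0, 72.1 and 75.6 CPM in Parental. The groups were well separated, with a log2 fold change of -1.49 (SE 0.06, edgeR adjusted p = 8.44e-13). Other peptidases of the antigen route, most of them cytosolic, went both ways: 3 of 9 tested rose, 3 fell and 3 did not pass (median 0.07). Npepps, the puromycin-sensitive aminopeptidase, rose by 0.36 on the log2 scale (SE 0.04). Thop1, thimet oligopeptidase, fell by 0.40 (SE 0.06), Prep, prolyl oligopeptidase, by 0.31 (SE 0.04), and Lap3, leucine aminopeptidase, by 0.24 (SE 0.05).

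Promoter letters were read because IRF proteins bind GAAA repeats. RefSeq windows of GRCm38.p6, from 250 bases before to 50 bases after a gene's start, were matched for Tap1, Tapbp, Erap1, Calr, Canx and Pdia3, while Tap2, Tapbpl and Nlrc5 were not matched. The IRF core, GAAA then NN then GAAA, was searched on both strands, as was the composite ETS-IRF motif, GGAA then NN then GAAA, which can overlap it. The core was in 3.44% of all 32851 windows and the composite in 2.72%, and among windows of tested genes in 3.14% and 2.29%. Among the 6 windows Erap1 alone held the core, and none held the composite. Position 1 is the start on which RefSeq's window is centred. For Erap1 that is base 74639853, a start 280 bases downstream of the 5′ end of the gene model given above, and the match runs from position -4 to position 6 around it. For the other members with a window, position 1 is the 5′ end of the gene model. Among immunoproteasome, activator and class I chain genes, 4 more had the core in a window, each counted from the gene model's 5′ end. That is 1 of 7 windows of the immunoproteasome and activator list and 3 of 10 windows of the class I chains. The letters of these 4 and of Erap1 are shown because the 5 genes did not move the same way. The windows are chr13:74639839-74639868 (+ strand), chr14:55578493-55578522 (+), chr2:122147538-122147567 (+), chr17:36042914-36042943 (-) and chr17:36032806-36032835 (-), written 5′ to 3′ along the gene with the match in capitals.
Erap1: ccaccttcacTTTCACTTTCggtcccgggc
Psme1: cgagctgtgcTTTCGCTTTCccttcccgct
B2m: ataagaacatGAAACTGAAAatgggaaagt
H2-T22: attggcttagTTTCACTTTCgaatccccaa
H2-T23: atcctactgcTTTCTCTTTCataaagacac
Erap1 and Psme1 fell, by 1.49 and 0.40 on the log2 scale, with matches from -4 to 6 and from 10 to 19. B2m, H2-T22 and H2-T23 rose, by 0.38, 1.01 and 1.37, with matches from -139 to -130, from -191 to -182 and from -124 to -115. In Psme1 the composite also matches, from 16 to 25, overlapping the core. In the remaining lists the core was in windows of Txndc5, Irf2 and Stat2 (from -163, -241 and -222), with log2 fold changes of 0.19, -0.08 and 0.52, of which that of Irf2 did not pass. The composite was in those of Irf2, Stat2 and Dnajb11 (from -247, -216 and -126), and Dnajb11 fell by 0.33. Genes with a match thus moved in both directions or did not pass. A match is a description of letters and not a bound site, and a window without one says nothing of binding outside it.

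Nlrc5 (434341, chromosome 8, 94434335 to 94527272) was the lowest of the 9 genes, with 24, 41 and 40 reads in the IRF2_KO libraries and 58, 53 and 70 reads in the Parental libraries. At 0.806, 1.43 and 1.19 CPM in IRF2_KO and 1.46, 1.57 and 1.74 CPM in Parental the groups just failed to overlap. Its difference of -0.48 on the log2 scale (SE 0.21) missed the threshold (edgeR adjusted p = 0.0723). The value depended on single libraries, being -0.66 without IRF2_KO 2 (edgeR adjusted p = 0.0254) and -0.28 without IRF2_KO 1 (edgeR adjusted p = 0.328). NLRC5 acts on class I promoters together with the RFX complex, CREB and ATF1, and the NF-Y complex. Of 8 tested partners, 1 rose, 2 fell and 5 did not pass, with a median log2 fold change of -0.05. Rfxank fell to 62.9 ± 2.37 CPM in IRF2_KO, against 76.0 ± 2.82 CPM in Parental. Rfx5 rose by 0.16, a call lost without IRF2_KO 1, Parental 2 or Parental 3 (0.14, 0.14 and 0.15), and Nfyc fell by 0.28, a call lost without any 1 of the 6 libraries (-0.32 to -0.21). Ciita, the class II counterpart of Nlrc5, was too low to test.

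In size-factor-adjusted RPKM the 9 genes spanned a wide range of levels. In IRF2_KO the order was Calr (1428 ± 43.9), Pdia3 (390 ± 4.10), Canx (327 ± 8.19), Tapbp (94.7 ± 4.53), Erap1 (6.14 ± 0.361), Tap1 (1.96 ± 0.162), Tap2 (1.51 ± 0.0168), Tapbpl (0.625 ± 0.109) and Nlrc5 (0.143 ± 0.0400; SD, n = 3). In Parental it was Calr (1329 ± 7.91), Pdia3 (450.1 ± 18.1), Canx (317 ± 14.6), Tapbp (59.1 ± 0.508), Tap2 (27.0 ± 1.14), Erap1 (17.2 ± 1.06), Tapbpl (9.92 ± 0.611), Tap1 (7.22 ± 0.540) and Nlrc5 (0.198 ± 0.0170; SD, n = 3). No neighbours in either order overlapped in the ranges of their libraries. The first 4 places and the last were held by the same genes in both groups, and Tap2 stood below Erap1 and Tap1 in IRF2_KO but above both in Parental. The step from Tapbp down to the next gene was 15.4-fold in IRF2_KO and 2.19-fold in Parental.

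Before loading, peptides come from proteasomes, and after it they are held by class I heavy chains with B2m. All 6 tested immunoproteasome and proteasome activator genes fell, with a median log2 fold change of -0.50, where 23.6% of all genes tested were called lower. Of the 6, only 2, Psmb9 and Psmb8, fell at least 2-fold. Psmb9, a catalytic subunit, fell to 1.10 ± 0.328 CPM in IRF2_KO, against 13.5 ± 0.526 CPM in Parental, and Psmb8 to 2.81 ± 0.195 CPM, against 15.2 ± 0.869 CPM. Psmb10 and Psme1 fell by 0.50 and 0.40 on the log2 scale. Of the class I chains, 3 of 6 tested rose and 3 fell (median -0.22), and 3 were too low to test. H2-D1 and H2-K1, the classical heavy chains, fell by 1.26 and 0.81, and H2-T23 rose by 1.37. H2-M3 had 3, 7 and 0 reads in IRF2_KO and 264, 186 and 290 reads in Parental, a fitted log2 fold change of -5.85 that was -7.00 without IRF2_KO 2 and -5.22 without IRF2_KO 3. Class I heavy chains resemble each other, and reads without a unique place were left out of the counts, so their values are uncertain. Among interferon regulators upstream, 5 of 6 rose, none fell and Irf2 did not pass. Irf9, the DNA-binding part of the interferon-stimulated complex, rose by 2.45, its partner Stat2 by 0.52, and Irf8 by 1.06.

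**Figure D3:**
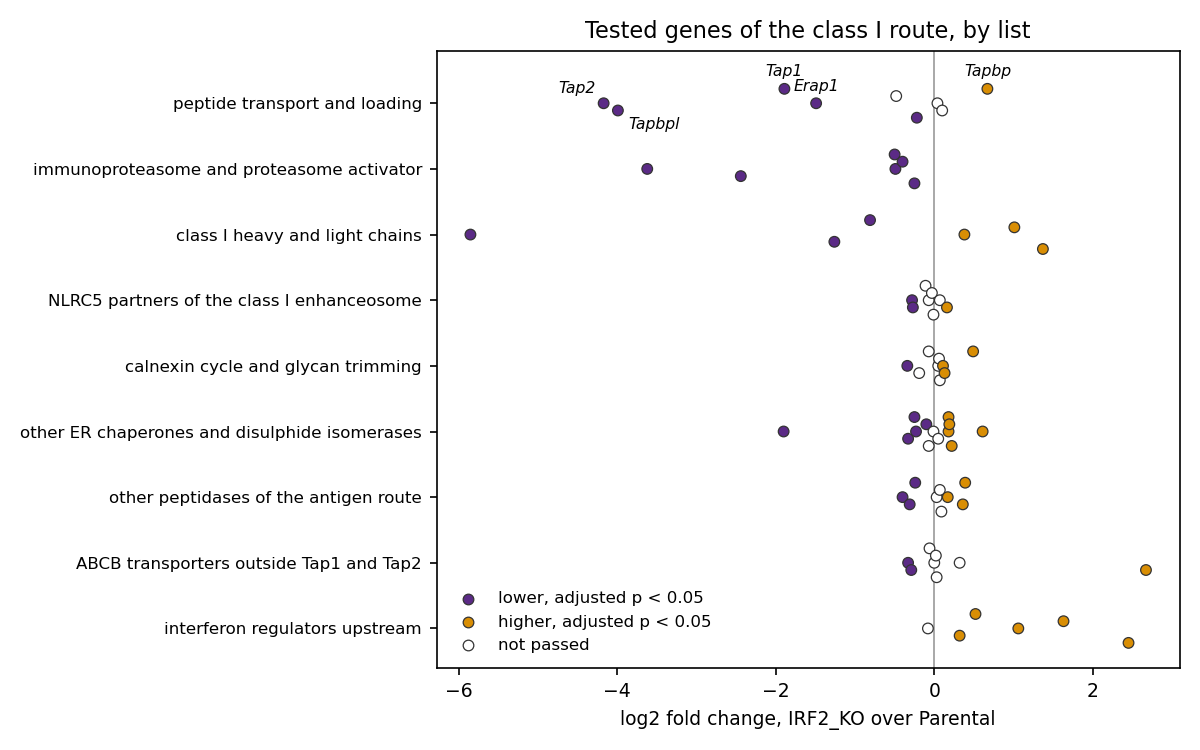
Each point is a tested gene's log2 fold change, IRF2_KO over Parental, in 1 row per list, with filled points past the edgeR adjusted p of 0.05 and vertical offsets that only separate points. The largest falls in the top row are Tap2, Tapbpl, Tap1 and Erap1, and Tapbp is its 1 called rise.

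Tap1 and Tap2 lie in the MHC on chromosome 17, and Psmb8 between them and Psmb9 beside Tap1 fell as well. In RefSeq, Psmb9 and Tap1 lie 225 bases apart on opposite strands, 969 bases separate Tap1 from Psmb8, and another 3024 separate Psmb8 from Tap2. Log2 fold changes along this run were -3.62 for Psmb9, -1.89 for Tap1, -2.44 for Psmb8 and -4.17 for Tap2. Within 300 kb of the start of Tap1, 28 genes were tested, of which 10 were called lower, 3 higher and 15 did not pass. Among all genes tested, 23.6% were called lower and 23.6% higher. At higher coordinates than Tap1 the window held only Psmb8 and Tap2, so it describes mainly the other side. The 4 falls of at least 2-fold in that window were those of Psmb9, Tap1, Psmb8 and Tap2, and the median of all 28 was -0.13. The next tested gene on the near side, H2-DMb1, which helps load class II molecules, had a log2 fold change of 0.06 (edgeR adjusted p = 0.662). On the far side the next tested gene was Notch4, 347964 bases beyond Tap2, which rose to 1.59 ± 0.179 CPM in IRF2_KO, against 0.817 ± 0.186 CPM in Parental. H2-K1 at -191.5 kb and Tapbp at -268.1 kb from Tap1 changed by -0.81 and 0.67.

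**Figure D4:**
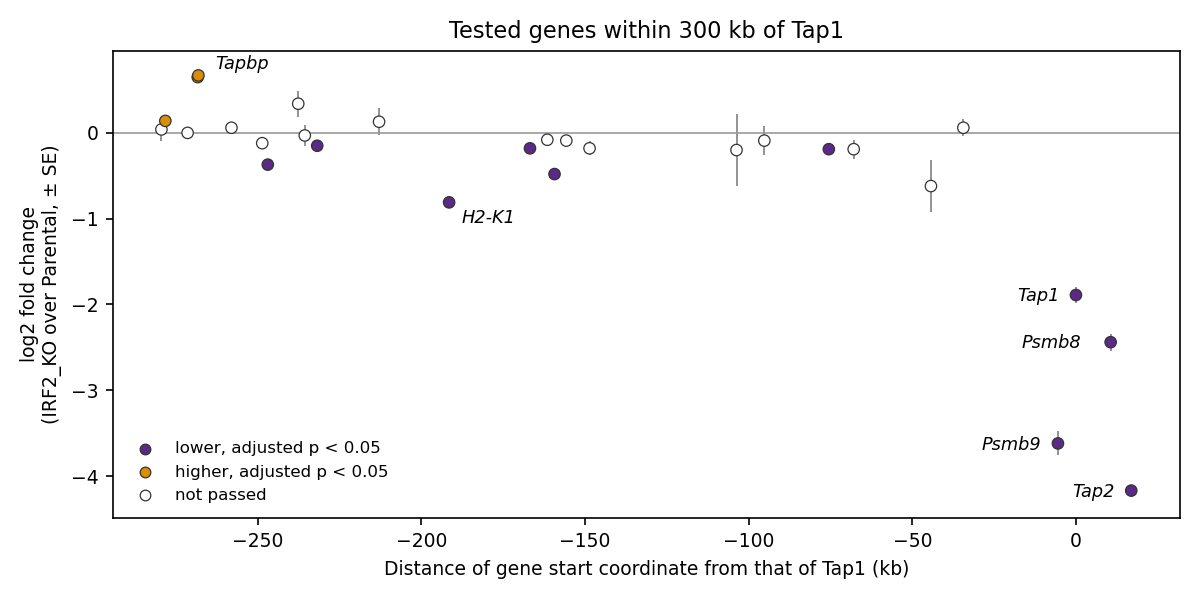
Log2 fold change (IRF2_KO over Parental, ± SE) of the 28 tested genes within 300 kb of Tap1 against the distance of their start coordinates in kb. Psmb9, Tap1, Psmb8 and Tap2 sit between -4.17 and -1.89, and the other genes between -0.81 and 0.67.

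At the other loci most neighbours differed little. Vamp1 beside Tapbpl is given above, and Zfp825 beside Erap1 did not pass (log2 fold change -0.08, edgeR adjusted p = 0.602). Rgl2, 223 bases from Tapbp, did not pass either (0.06, edgeR adjusted p = 0.400). Maml1 and Hnrnph1 beside Canx and Ell3 beside Pdia3 had log2 fold changes of 0.02, -0.10 and 0.13 that did not pass. Herpud1, an endoplasmic reticulum stress gene next to Nlrc5, fell by 0.32 (SE 0.05). Catsper2 beside Pdia3 and Cpne2 beside Nlrc5 had log2 fold changes of -0.54 and 0.22, and both calls were lost without Parental 2 (-0.44 and 0.21) or IRF2_KO 3 (-0.54 and 0.18). The call of Catsper2 was also lost without IRF2_KO 2 (-0.48) and that of Cpne2 without Parental 1 (0.21). 1700122E12Rik beside Calr did not pass (-0.72, edgeR adjusted p = 0.115).

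The genes with the most similar profile were found by the Euclidean distance between centred log2 CPM over the 6 libraries. Nearest to Tap2 was Mycn, a proto-oncogene that is also among the progenitor markers above, at a distance of 0.12, followed by Slfn9 (0.494) and Cpq (0.497). Mycn stood at 4.42 ± 0.188 CPM in IRF2_KO and 82.7 ± 1.49 CPM in Parental. For Tapbpl the nearest named genes were 6530402F18Rik (0.359), Hfe (0.381) and Cpq (0.397), for Tap1 Cdkn2a (0.158), Elane (0.169) and Trim9 (0.175), and for Erap1 Otogl (0.168), Vat1l (0.182) and Tnfsf13 (0.183). Abi3, Cela1 and Ckap4 were nearest to Tapbp (0.0517 to 0.075). The genes nearest to Calr were Gabarapl1, Gatb and Irak4, to Canx Dnm1l, Cops3 and Metap2, to Pdia3 Ado, Psmd12 and Hnrnpab, all at 0.0323 or less, and to Nlrc5 Aebp1, 4933408J17Rik and Mir762 (0.142 to 0.145). With 2 groups of 3 libraries such a distance mostly reflects the size of the difference between groups, and thus describes genes that changed by a like amount.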

How the data were processed

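The 6 libraries were grouped by their group label (3 IRF2_KO, 3 Parental), and replicates were numbered in record order. Per the labels' protocols RNA was column-purified, treated with DNase and turned into libraries by a kit for stranded total RNA, although the molecule label names polyadenylated RNA. The submitters' processing notes name GSNAP and the build GRCm38. Its version, the annotation and the strand setting were not stated. The authors' counts are, per the file headers, reads aligned uniquely to each gene model, so reads shared with near-identical copies are absent. The deposited RPKM are size-factor-adjusted values per kilobase, per the file headers, and were checked to be the same counts rescaled by 1 factor per library over 11860 genes.

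Symbols and positions came from a RefSeq table of the same build (31049 IDs) and GENCODE M21 names (77 more), and all 132 list genes were matched. The mean chi-square per gene between libraries of a group was 2.78 to 10.1, above sampling noise, so none was merged. Counts were tested in R 4.3.3 with edgeR 4.0.16 (filterByExpr, TMM, robust quasi-likelihood F-test, two-sided). A standard error is the size of the log2 fold change over the root of F. The test was checked on simulated data in which far fewer genes differed than were called here, so that check does not cover so widespread a change.

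The members and gene lists were chosen with earlier results of these data known. The text names the members, Irf2, up to 4 genes a list by adjusted p and those against its majority, adjacent genes, and the 3 most similar profiles, although some of these are not reported here; Abcb9, Ciita, H2-DMb1, H2-T22, B2m, the marker genes and the motif matches shown were chosen after their values were seen. Profiles used log2(CPM + 0.5). Alternatives were RLE, upper-quartile and no scaling factors, DESeq2 1.42.0, limma-voom (limma 3.58.1), limma on log2(RPKM + 0.1), no filter, 1 CPM in 3 libraries, an adjusted p under 0.01, at least 2-fold, glmTreat against 1.5-fold, and each library left out.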

Additional observations from a re-analysis of the deposited data

How the results depend on the processing

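Of the alternatives, an adjusted p under 0.01 and at least 2-fold only tightened the threshold on the main fit, so neither could change a direction. Tap1, Tap2, Tapbpl and Erap1 kept their call and direction under all 17 alternatives, with log2 fold changes of -1.95 to -1.82, -4.21 to -4.08, -4.08 to -3.80 and -1.53 to -1.44. Tapbp (0.64 to 0.71) and Pdia3 (-0.25 to -0.19) lost theirs only where at least 2-fold or glmTreat against 1.5-fold was asked for. Scaling moved the median of all genes to between -0.04 and 0.00. The 9 genes then had 2 called higher, with Calr added, under RLE factors, DESeq2, limma-voom or the 1 CPM filter, and 0 at 2-fold or with glmTreat; leaving out a library gave 1 to 2 higher and 5 to 6 lower. At 2-fold 640 genes were called higher and 302 lower among all tested, and with glmTreat 718 and 301.

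With either of those 2 thresholds the immunoproteasome list kept 2 lower, other chaperones 0 higher and 1 lower, and interferon regulators 3 higher, while the calnexin cycle, other peptidases and NLRC5 partners had 0 in each direction and ABCB transporters 0 lower. NLRC5 partners had 0 higher without scaling factors, without a filter or at an adjusted p under 0.01, 1 lower with DESeq2, without a filter or at 0.01, and 0 to 1 higher and 1 to 1 lower when a library was left out. Calnexin cycle genes had 1 higher without scaling factors or at 0.01, and 1 to 4 when a library was left out.

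Among 81 named genes, 1228 of 1375 values kept both their direction and their side of the threshold. With direction unchanged, 129 lost a call and 11 gained one. The other 7, of genes near 0, changed sign. Leaving out a library gave Vamp1 -0.10 to 0.12, Zfp825 -0.14 to 0.00, Maml1 -0.06 to 0.07 and Ell3 -0.36 to 0.34. Using no scaling factors gave Maml1 -0.01. The cause was not tested. No paired analysis was possible because the labels give no replicate numbers. Nlrc5 had the lowest depth of the 9 genes, 24 to 70 reads a library, and its call changed without IRF2_KO 2 (-0.66).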
